A study of Mus musculus with 12 samples.

Results

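Serotonin reaches the hypothalamus from the raphe nuclei and acts there through a family of receptors. The genes described here are the 9 receptor genes Htr1a, Htr1b, Htr1d, Htr2a, Htr2c, Htr3a, Htr4, Htr5a and Htr7 and the transporter gene Slc6a4. They were chosen by name, as every probe of the deposited normalized table whose gene symbol is 1 of these 10, and they have 17 of the 56605 non-control probes on the array. RNA of the hypothalamus of male C57BL/6 mice was hybridized to 12 single-color Agilent arrays, 3 in each of 4 groups. The groups were wild-type control (WT) and Asmt-knockout control (KO) mice, which did not swim, and wild-type exercise mice (called exercised WT) and Asmt-knockout exercise mice (KE), which swam daily without load. The labels give every mouse the age of 6 to 7 weeks, which the methods name as the age at which the swimming began. The training then ran for several weeks. Asmt encodes the enzyme that makes melatonin from N-acetylserotonin. KO and KE mice were homozygous for the Asmt knockout and descended from CRISPR founders with a deletion of 20 bp that had been crossed back to wild-type littermates for 3 generations. WT and exercised WT mice were wild-type littermates, and the labels name no reporter or Cre transgene in any group. Nothing in the labels names the animal behind each array, so p-values measure the spread between these samples.

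Serotonin is made from tryptophan by tryptophan hydroxylase and aromatic amino acid decarboxylase, packed into vesicles by the vesicular monoamine transporter and cleared by the transporter that Slc6a4 encodes. Htr1a, Htr1b, Htr1d and Htr5a encode receptors that signal through inhibitory G proteins and lower cyclic AMP. Htr2a and Htr2c encode receptors that signal through Gq proteins to phospholipase C. Htr4 and Htr7 encode receptors that raise cyclic AMP through Gs proteins, and Htr3a encodes a subunit of the only serotonin receptor that is an ion channel. In the hypothalamus these receptors are known for their part in feeding, body temperature, stress hormone release and the timing of the daily clock. The cell bodies that transcribe Tph2 and Slc6a4 lie in the raphe, so hypothalamic tissue holds mainly the axons of these neurons and the cells that respond to them.

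Several of the genes were read by more than 1 probe, and the probes of a gene did not all behave alike. The probes of Htr1b, Htr3a, Htr2c and Htr7 are therefore shown, followed by those of Slc6a4. Htr4 was also read by more than 1 probe, and its probes are compared below without their sequences. Each probe is 60 bases long and is printed 5′ to 3′ in the sense of the transcript, with positions on build mm9 as the array annotation gives them for the whole probe. Capitals mark every TAA, TAG or TGA triplet, in whichever reading frame it lies. The first 30 bases are printed, except for 1 probe of Htr1b and 1 of Htr3a that are printed whole. Whether a probe lies in coding sequence or in an untranslated region is not given in the sources used here. Both probes of Htr1b lie on chromosome 9, minus strand.
Htr1b A_55_P2290443, chr9:81522512-81522571: tggggcatcgtgtatccaaTAGaagcttgc
Htr1b A_52_P103998, chr9:81525015-81525074: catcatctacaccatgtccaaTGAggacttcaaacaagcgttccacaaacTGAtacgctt
The former probe was well above background on all 12 arrays and the latter on 2, and each has 1 of 3 reading frames free of stop triplets over its whole length. Both probes of Htr3a also lie on chromosome 9, minus strand.
Htr3a A_55_P2093336, chr9:48707773-48707832: ctggtcactctctggtccatttggcattat
Htr3a A_66_P131023, chr9:48709008-48709067: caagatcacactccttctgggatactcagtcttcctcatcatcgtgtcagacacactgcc
The former was well above background on 12 arrays and the latter on 11. All 3 reading frames of the latter are free of stop triplets over 60 bases, against 2 of the former. The probes of Htr2c lie on chromosome X, plus strand, and those of Htr7 on chromosome 19, minus strand.
Htr2c A_55_P1977503, chrX:143631655-143631714: cgtgcaacagactgccttatattatttcct
Htr2c A_52_P164255, chrX:143511858-143511917: aacaagttctccaaatgcaTAAtggaattg
Htr7 A_55_P2100103, chr19:36033339-36033398: gtgtacaaattccTGAgctgcagattcgct
Htr7 A_51_P101065, chr19:36034764-36034823: aagTAAtgcagaacagggggaaacaacgaa
Htr7 A_55_P2177309, chr19:36038872-36038931: gaatttaccttggggTAAcggagTGAatac
Of these, the former Htr2c probe and the first pair of Htr7 probes were well above background on all 12 arrays, the latter Htr2c probe on none (0 arrays) and the last Htr7 probe on 2. The transporter gene Slc6a4 has 2 probes on chromosome 11, plus strand, and they are shown because the transporter was the member gene that could not be tested.
Slc6a4 A_51_P496253, chr11:76845560-76845619: acaTAAaccaccTAAgagaaaacagggatg
Slc6a4 A_55_P2718157, chr11:76835716-76835775: ttTAActatatgtgtgTGAgagtttggcca

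Most of the receptors were read well above background in hypothalamus and the transporter was not. A probe counts as well above background when the scanner software marked its spot so, and a probe was tested when this held on all 3 arrays of at least 1 group. By this rule 12 of the 17 probes and 9 of the 10 genes were tested, against 35230 of 56605 probes on the whole array. The receptor genes Htr1a, Htr1b, Htr1d, Htr2a, Htr2c, Htr3a, Htr4 and Htr7 each had a probe well above background on all 12 arrays, and Htr5a was so on 11. The probe A_51_P496253 of Slc6a4 was well above background on WT replicate 1 only, with normalized log2 signals from 1.86 to 4.19 over the 12 arrays, and A_55_P2718157 on none (0 arrays). For comparison, the dimmest probe that the scanner software accepted lay between 3.67 and 4.51, depending on the array. Of 6 markers of raphe serotonin neurons, 3 were tested (Lmx1b, Gata3 and Slc18a2), while Tph2 was well above background on 1 array and Fev on 6. All 14 hypothalamus markers were tested, 13 of them well above background on every array, and their mean log2 signal lay between 12.36 and 12.70. Asmt itself, read by 1 probe, was well above background on none of the arrays (0 of 12, log2 signal 1.83 to 2.49), so the genotype could not be checked with it.

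**Figure D1:**
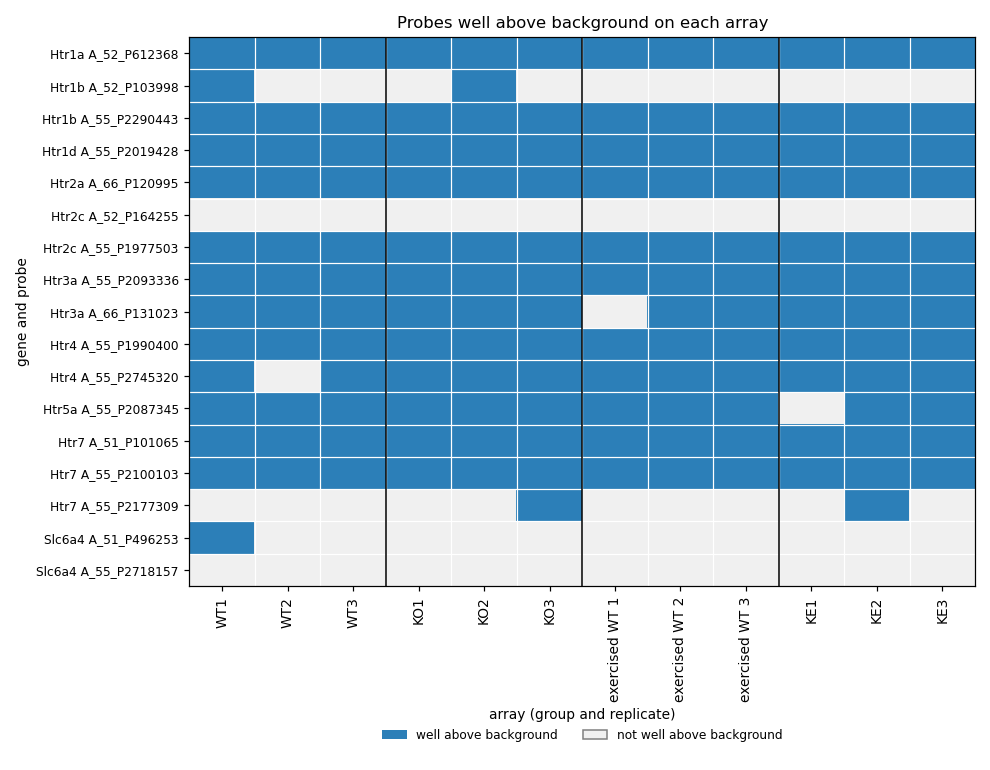
Detection of the 17 probes (rows, gene and probe) on the 12 arrays (columns, 3 per group, black lines between groups); a blue cell is a probe marked well above background. The 9 rows that are blue throughout belong to 8 receptor genes, and both Slc6a4 rows are empty but for WT replicate 1.

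The arrays lay on 2 slides. All 3 WT arrays and KO replicates 1 and 2 were on slide 1, whereas KO replicate 3 shared slide 2 with the swimming mice. Of the variance over tested probes, 47.3% lay along a first principal component that placed slide 1 between -47.5 and -29.5 and slide 2 between 19.3 and 40.0. Exercised WT versus WT therefore cannot be told apart from the slide except through the KO arrays, KE versus KO rests on KO replicate 3 for the same reason, and KE versus exercised WT lies within slide 2. Each difference is given on the log2 scale, where 1 unit is 2-fold, from limma's fit of 4 group means, with p-values adjusted over all 35230 tested probes, and from the same fit with the slide as a block where that changes the reading. Between 61.6% and 67.9% of the 59305 spots per array were well above background, no spot was saturated (0 on every array), and the number of arrays limits the precision. In bulk tissue, fewer cells that express a receptor and less RNA per cell cannot be told apart.

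Among the receptors that lower cyclic AMP, Htr1b was lower in KE than in KO and exercised WT mice by a small amount, and none of the 4 genes passed an adjusted test. Htr1b encodes a receptor on axon terminals, where it restrains transmitter release. Its brighter probe gave log2 signals of 8.94, 9.25 and 9.19 in WT, 9.18, 9.32 and 9.29 in KO, 9.16, 9.21 and 9.24 in exercised WT, and 9.14, 8.91 and 8.96 in KE mice. Each KE array was below every KO and every exercised WT array, and the WT range overlapped all other groups. The log2 difference between KE and KO mice was -0.26 (standard error 0.09, adjusted p = 0.178 from limma) and that between KE and exercised WT mice -0.20 (standard error 0.09, adjusted p = 0.748). When the slide entered the fit as a block, the former was -0.28 (adjusted p = 0.567).

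Htr1a encodes the autoreceptor of raphe neurons, which is also found on their target cells. Its log2 signals were 7.20, 7.24 and 7.60 in WT, 7.35, 7.70 and 7.34 in KO, 7.24, 7.80 and 7.93 in exercised WT, and 7.13, 7.27 and 7.42 in KE mice. Exercised WT replicates 2 and 3 were the 2 highest arrays, and exercised WT replicate 1 lay within the KE range. The KE mean of 7.27 ± 0.14 (SD, n = 3) was below the exercised WT mean of 7.66 ± 0.37 (SD, n = 3), and the log2 difference of -0.38 had a 95% interval from -0.80 to 0.03. Markers of the neighbouring striatum are given beside these values. All 6 striatum markers were tested, and their mean log2 signal was 10.46, 10.51 and 10.88 in WT, 10.50, 10.51 and 10.40 in KO, 10.47, 10.78 and 11.61 in exercised WT, and 10.39, 10.34 and 10.36 in KE mice. The 3 arrays highest in the striatum list (exercised WT replicates 3 and 2 and WT replicate 3) were among the 4 highest for Htr1a. By the brightest probes, all 6 markers but Tac1 were highest on exercised WT replicate 3, as Htr1a was. Tac1 was highest on KO replicate 1 (14.76) and lowest on WT replicate 3 (14.41). Rgs9 was higher on WT replicate 1 (12.51) than on exercised WT replicate 2 (12.39). In KE versus exercised WT the striatal genes Drd1 and Adora2a, which encode dopamine and adenosine receptors, had log2 differences of -0.71 (95% interval -1.35 to -0.07) and -1.33 (-2.47 to -0.19). Without exercised WT replicate 3 these were -0.30 and -0.74. The part of striatal tissue in the Htr1a values was not tested.

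Htr1d and Htr5a were near the lower end of what the array read. Htr1d, which encodes a receptor close to that of Htr1b, gave 5.63, 5.44 and 5.66 in WT, 5.56, 5.19 and 5.43 in KO, 5.32, 5.59 and 5.51 in exercised WT, and 4.84, 5.41 and 5.30 in KE mice. The groups overlapped, and KE replicate 1 was the lowest array. Htr5a ranged from 3.79 on KE replicate 1, where it was not well above background, to 6.07 on KO replicate 2. Its SD within groups was between 0.15 and 0.72, and the 95% interval of KE versus KO ran from -1.65 to 0.18. The other probe of Htr1b, well above background on WT replicate 1 and KO replicate 2 only, was not tested.

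**Figure D2:**
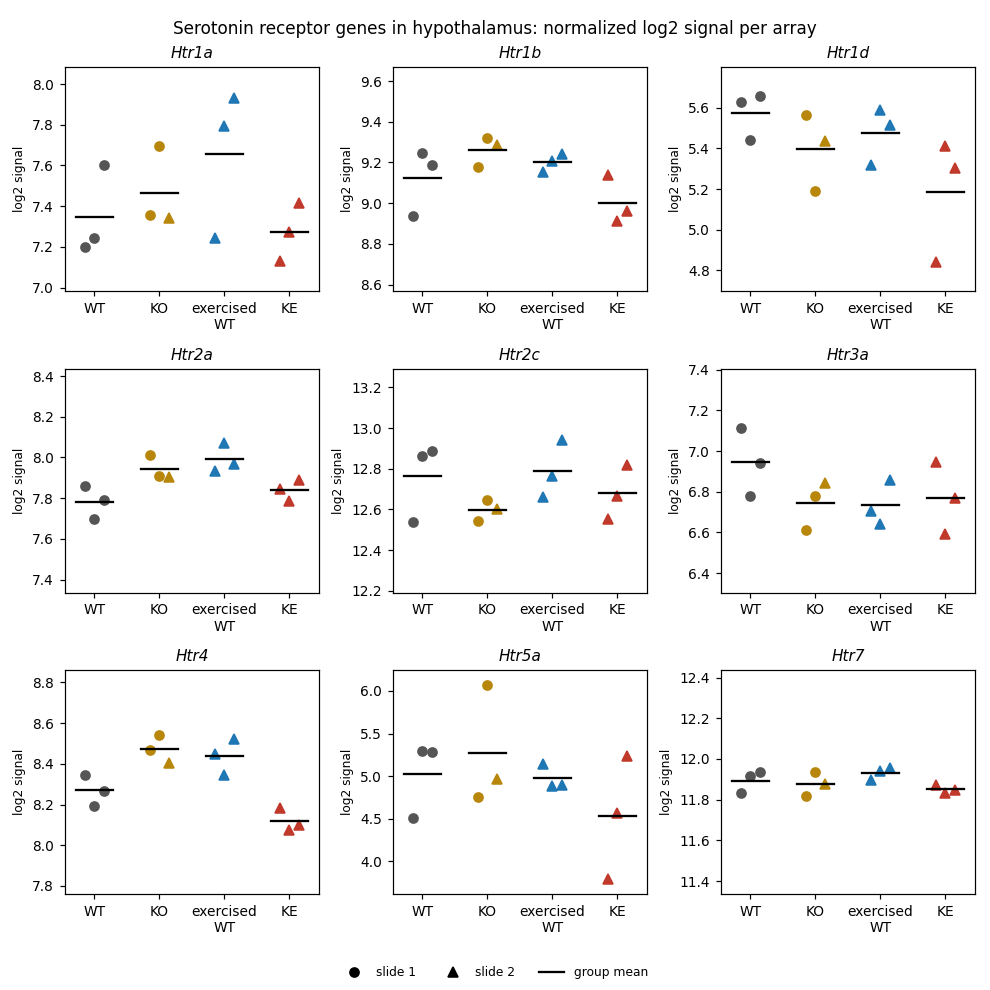
Normalized log2 signal of the brightest probe of each tested receptor gene on every array, by group (3 arrays each), with circles for slide 1, triangles for slide 2 and bars for group means; each panel has its own vertical range. In the Htr4 panel the 3 KE arrays, from 8.08 to 8.18, sit below the arrays of every other group, whereas the Htr7 panel is nearly level.

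Of the receptors that act through phospholipase C, Htr2a was slightly higher in KO and exercised WT than in WT mice, without passing adjustment, and Htr2c overlapped in all groups. Htr2a encodes the receptor through which serotonergic hallucinogens act. Its log2 signals were 7.86, 7.70 and 7.79 in WT, 8.01, 7.91 and 7.90 in KO, 7.93, 8.07 and 7.97 in exercised WT, and 7.85, 7.79 and 7.89 in KE mice. All KO and all exercised WT arrays were above every WT array, and all KE arrays were below every KO and exercised WT array. The log2 differences were 0.16 (95% interval 0.02 to 0.30) in KO versus WT and 0.21 (0.07 to 0.35) in exercised WT versus WT. For KE mice they were -0.10 (-0.24 to 0.04) against KO and -0.15 (-0.29 to -0.01) against exercised WT. None passed adjustment, with adjusted p = 0.849, 0.104, 0.365 and 0.741 from limma in this order. The interaction, the swimming difference in knockout minus that in wild-type mice, was -0.31 (standard error 0.09, adjusted p = 0.530). With normexp, a background correction that models the signal and local background of each spot, the KE versus KO difference turned to 0.04, KE versus exercised WT was at 0.00 and the interaction was -0.16.

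Htr2c encodes the receptor by which serotonin restrains feeding through melanocortin neurons. Its brighter probe was at 12.54, 12.86 and 12.89 in WT, 12.54, 12.65 and 12.60 in KO, 12.66, 12.76 and 12.94 in exercised WT, and 12.55, 12.67 and 12.82 in KE mice. All 4 groups overlapped, and over the 4 comparisons of groups the 95% intervals of the log2 difference lay between -0.41 and 0.33. Htr2c is also transcribed in choroid plexus, and 7 of 8 choroid plexus markers were tested. Their mean log2 signal ranged from 7.76 to 8.20 in WT, 7.42 to 8.58 in KO, 8.23 to 8.70 in exercised WT and 7.86 to 8.13 in KE mice. The array highest in that list, exercised WT replicate 2, was not the highest for Htr2c, and the part of choroid plexus in the Htr2c values was not tested.

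The channel subunit gene Htr3a was read at different levels by its probes, and the dimmer one was lower in exercised WT than in WT mice. The difference between the probes was not tested. The brighter probe gave 7.11, 6.78 and 6.94 in WT, 6.61, 6.78 and 6.84 in KO, 6.70, 6.64 and 6.86 in exercised WT, and 6.94, 6.59 and 6.77 in KE mice. The dimmer one, the probe with 3 open frames, gave 5.15, 4.84 and 4.74 in WT, 4.47, 4.97 and 4.84 in KO, 4.12, 4.19 and 4.32 in exercised WT, and 4.58, 4.45 and 4.39 in KE mice. For the dimmer probe every exercised WT array was below all other arrays, and exercised WT replicate 1 was not well above background. Its exercised WT versus WT log2 difference was -0.70 (standard error 0.14, adjusted p = 0.0934 from limma), against -0.21 (standard error 0.11, adjusted p = 0.262) for the brighter probe. The dimmer probe gave -0.82 (adjusted p = 0.735) in the fit with the slide block and -0.28 with normexp background correction. Without KO replicate 3 the dimmer probe kept its difference of -0.70, and its adjusted p from limma was 0.0117, where 18% of all probes passed. Exercised WT versus WT lies wholly between the slides with or without that array.

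Of the receptors that raise cyclic AMP, Htr4 was lower in KE mice than in the other groups by its brighter probe, without passing adjustment, and Htr7 was nearly level. Htr4 encodes a receptor that is expressed in striatum, hippocampus and hypothalamus and that raises the firing of the cells that carry it. Its brighter probe, A_55_P1990400, gave 8.34, 8.19 and 8.27 in WT, 8.47, 8.54 and 8.40 in KO, 8.45, 8.34 and 8.52 in exercised WT, and 8.18, 8.08 and 8.10 in KE mice. The order of the group means was KE, WT, exercised WT and KO. KE arrays were below all others, although KE replicate 1 lay only just under WT replicate 2, and KO arrays were above all WT arrays. Exercised WT and KO overlapped, and exercised WT replicate 2 was level with the highest WT array.

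For this Htr4 probe the log2 difference between KE and KO mice was -0.35 (standard error 0.07, adjusted p = 0.101), which puts KE at 0.783 of the KO signal. It was -0.32 (standard error 0.07, adjusted p = 0.540) in KE versus exercised WT. In KO versus WT it was 0.20 (95% interval 0.05 to 0.35, adjusted p = 0.849) and in exercised WT versus WT 0.17 (0.02 to 0.32, adjusted p = 0.156). The interaction was -0.52 (95% interval -0.73 to -0.31, adjusted p = 0.479). KO was thus above WT in mice that did not swim and KE below exercised WT in mice that did, by values that did not pass adjustment over 35230 probes. In the fit with the slide block KE versus KO was -0.28 (adjusted p = 0.398) and the interaction -0.56 (adjusted p = 0.236). The interaction was -0.39 with normexp background correction, and leaving out each array in turn kept it between -0.57 and -0.48. Without KO replicate 3, KE versus KO was -0.39 with an adjusted p of 0.00558, but then every KO array lay on slide 1 and every KE array on slide 2. At the same time 8577 of the 35230 probes passed, so the call cannot be told apart from the slide.

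The other probe of Htr4, A_55_P2745320, did not show the lower KE values, and its difference changed sign in each of the 5 comparisons when single arrays were left out. It gave 5.77, 4.55 and 6.20 in WT, 5.63, 5.91 and 6.05 in KO, 5.79, 5.82 and 5.65 in exercised WT, and 5.77, 5.86 and 5.71 in KE mice. WT replicate 2 was not well above background on it. Its log2 difference was 0.03 with a 95% interval from -0.71 to 0.77 in KE versus exercised WT. It was -0.08 (-0.82 to 0.65) in KE versus KO and -0.33 (-1.37 to 0.71) in the interaction. Each of these intervals includes the value of the brighter probe. The mean of the striatum markers listed with Htr1a was also lowest in KE mice, at 10.34 to 10.39. It was at 10.40 to 10.51 in KO mice, in which Htr4 was highest. The part of striatal tissue in the Htr4 values was not tested.

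**Figure D3:**
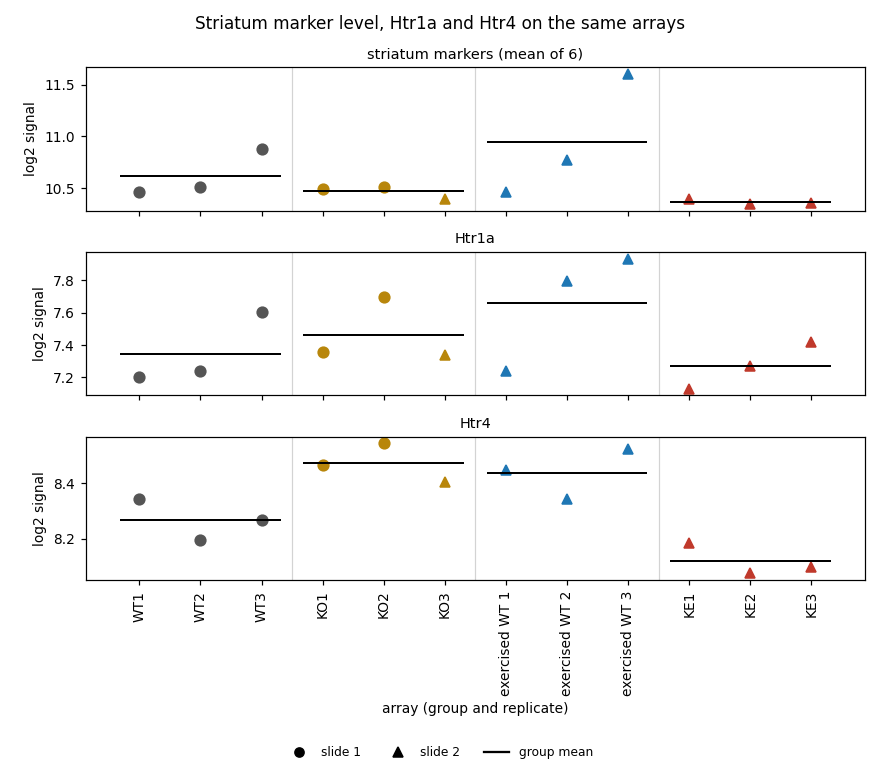
Normalized log2 signal per array (vertical axes; arrays on the horizontal axis, 3 per group) of the mean of 6 striatum markers, Htr1a and Htr4, with circles for slide 1, triangles for slide 2 and bars for group means. Exercised WT replicate 3 stands at 11.61 in the striatum list and is the highest array for Htr1a, while Htr4 is highest on KO replicate 2, where the striatum list is at 10.51.

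Htr7 encodes a receptor known for its part in shifting the daily clock. Its brightest probe stayed between 11.82 and 11.96 over all 12 arrays, and the group means ran from 11.85 (KE) over 11.88 (KO) and 11.89 (WT) to 11.93 (exercised WT). In KE versus exercised WT the groups did not overlap, with a log2 difference of -0.08 (adjusted p = 0.814). The 95% intervals of the 4 comparisons of groups lay between -0.19 and 0.15. The next Htr7 probe ranged from 7.36 to 7.73, with differences from -0.12 to -0.10 in the 4 comparisons of groups.

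**Figure D4:**
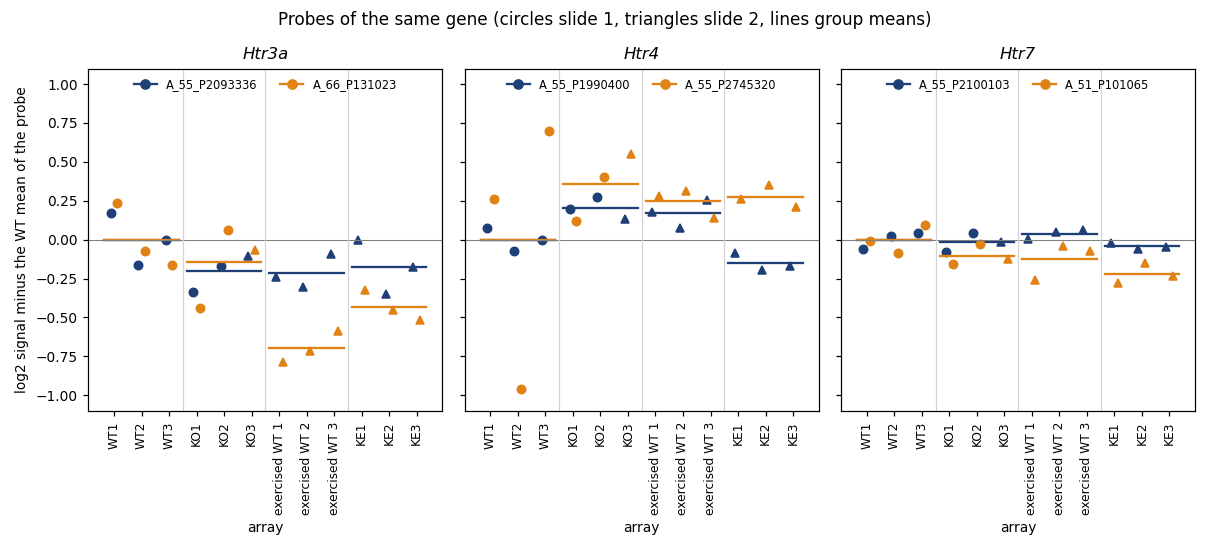
Log2 signal of each tested probe of Htr3a, Htr4 and Htr7 on every array, minus the WT mean of the same probe (vertical axis), with circles for slide 1, triangles for slide 2 and lines for group means. For Htr4 the blue probe is lower in KE mice while the orange one is not, and for Htr3a the orange probe lies lower in exercised WT mice than the blue one.

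The methods screened for probes that differed at least 2-fold in either direction and whose p was 0.05 or lower before adjustment. No serotonin gene met this criterion in any of the 5 comparisons (0 of 12 probes in each). Of all 35230 tested probes, the share that met it was 0.224% for KO versus WT, 2.19% for exercised WT versus WT, 1.21% for KE versus KO, 0.253% for KE versus exercised WT and 0.593% for the interaction. None of the 12 had an adjusted p under 0.05 by limma (0 in each comparison). Of all probes 0% reached it, other than in KE versus KO with 0.0199%. The methods' t-test, run on the 4 comparisons of groups, gave 0 of the 12 member probes after adjustment in each, and 1635 of all 35230 probes in exercised WT versus WT.

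At an unadjusted p under 0.05, 2 of the 12 probes (Htr2a and Htr4) were higher in KO than in WT mice, against 2.39% of all probes, and none was lower. In the same comparison 2 probes lay wholly above WT, against 3.58% of all probes. In exercised WT versus WT 3 of 12 passed (Htr2a and Htr4 higher, Htr3a lower), against 26% of all probes, and 2 did not overlap, against 37.6%. In exercised WT versus WT these shares of the members, 25% and 16.7%, were no higher than those of all probes. With the slide as a block the former stayed at 25%, against 6.18% of all probes. In KE versus KO 2 of 12 were lower (Htr1b and Htr4), against 13% of all probes, and 3 lay wholly below KO, against 15.4%. In KE versus exercised WT 2 were lower (Htr2a and Htr4), against 4.47%. There 4 probes lay wholly below exercised WT (Htr1b, Htr2a, Htr4 and Htr7), against 11.2%, and 1 wholly above (Htr3a), against 8.28%. In the interaction 3 were lower (Htr1b, Htr2a and Htr4), against 4.12%, and none was higher.

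Fitting the slide as a block, the probes at an unadjusted p under 0.05 numbered 2 higher in KO versus WT (2.92% of all probes), 3 in exercised WT versus WT (6.18%), 1 lower in KE versus KO (4.12%), 2 lower in KE versus exercised WT (6.19%) and 3 lower in the interaction (6.3%). The methods' t-test gave 1, 2, 2 and 4 of the 12 probes in the first 4 comparisons, where it gave 1237, 9229, 4499 and 3778 of all probes. The median log2 difference of the 12 probes for KO versus WT was 0.05 and for exercised WT versus WT 0.03, beside -0.01 and -0.04 over all tested probes. For KE versus KO it was -0.15 and for KE versus exercised WT -0.13, beside -0.04 and -0.0087 over all tested probes. In KE versus KO 10 of the 12 were lower and 2 higher, and in KE versus exercised WT 9 were lower and 3 higher. The share of all tested probes that were lower is not given here, so these counts have no background beside them. Htr3a, Htr4 and Htr7 enter them with more than 1 probe. The comparisons share the arrays of KE and KO mice, so these counts are not independent of each other.

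**Figure D5:**
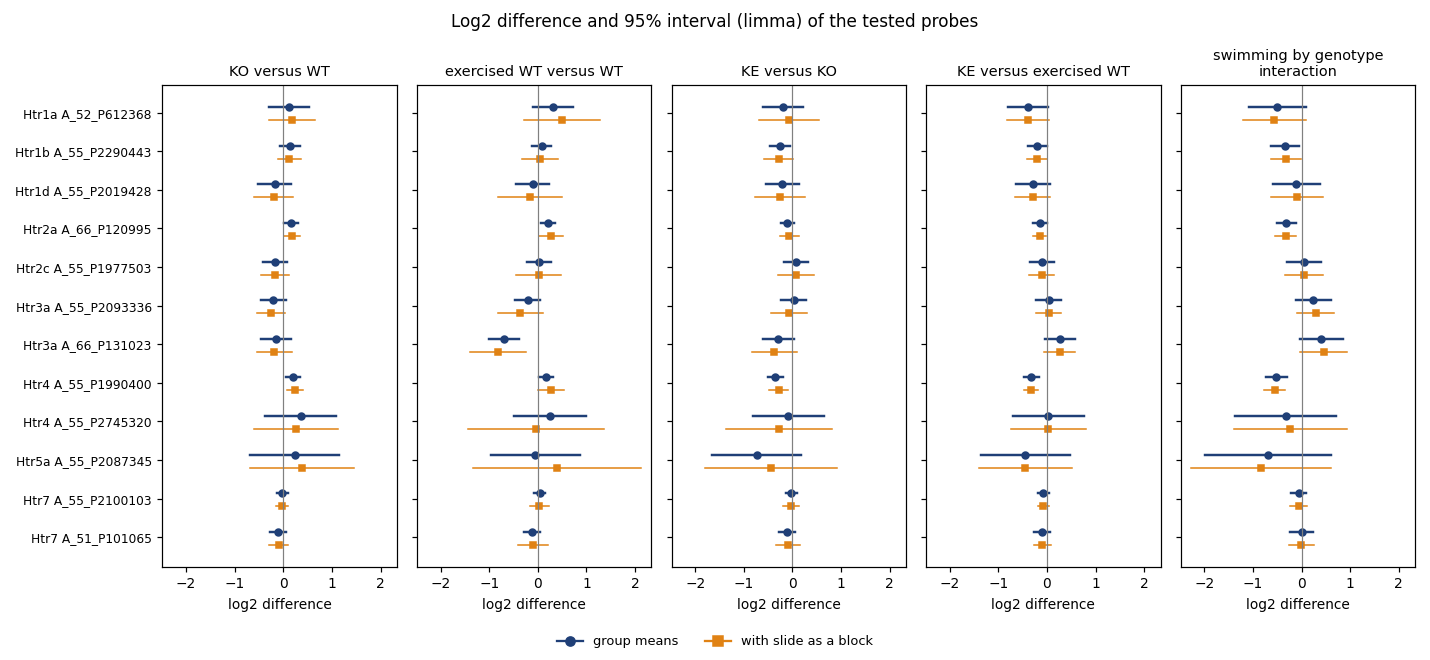
Log2 difference (horizontal axes) of the 12 tested probes in 4 comparisons of groups and in the swimming by genotype interaction, with 95% intervals from limma; blue circles are the fit of group means and orange squares the fit with the slide as a block. The intervals of Htr7 are narrow, those of Htr5a and of the dimmer Htr4 probe are wide, and those of the brighter Htr4 probe (A_55_P1990400) lie off 0 in every panel.

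Of the receptor genes of the same family outside the chosen 10, none of the 3 tested had an unadjusted p under 0.05 (0 in each of the 5 comparisons). Htr1f, with 4.10 to 5.40 in WT and 4.73 to 5.64 in KE mice, and Htr5b, with 6.52 to 7.13 over the arrays, were well above background on 12 arrays and Htr6 on 11, whereas Htr2b and Htr3b each were so on 1 array and were not tested. Htr6, which encodes another receptor coupled to Gs, was at 4.95, 4.93 and 4.96 in WT, 4.41, 4.56 and 4.89 in KO, 4.74, 5.25 and 5.18 in exercised WT, and 5.09, 4.87 and 4.86 in KE mice. All KO arrays were below all WT arrays, with a log2 difference of -0.33 (adjusted p = 0.849 from limma) and -0.46 (95% interval -0.78 to -0.14) with the slide block.

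The genes that make, pack and break down serotonin were read apart from the hydroxylases. Tph1, by its brightest probe, was well above background on none of the arrays (0 of 12) and Tph2 on WT replicate 3 only, and 11 of the 14 genes of this list were tested. Ddc, the decarboxylase that also serves dopamine neurons, was at 13.74 to 14.09 in WT and 13.51 to 13.71 in exercised WT mice, a log2 difference of -0.29 (95% interval -0.56 to -0.03) that was 0.03 once the slide was a block. Aldh2, an aldehyde dehydrogenase that acts after monoamine oxidase, had a difference of -0.52 (95% interval -0.89 to -0.15) in the same comparison, -0.25 with the block and -0.30 without exercised WT replicate 2. Slc22a3, a low-affinity monoamine transporter, had a log2 difference of -0.30 (95% interval -0.58 to -0.01) between KE and KO mice, -0.11 with the block and -0.20 without KE replicate 1. By the brightest probe of each gene, no other test of the list had an unadjusted p under 0.05. None had an adjusted p under 0.05 (0 of 11 genes in each comparison). Dimmer probes are not in these counts. The dimmer Ddc probe had a mean of 9.26 in WT and 8.68 in exercised WT mice. The dimmer Maob probe was at 7.07 to 7.30 in KO and 6.78 to 6.96 in KE mice. Maoa, which encodes the oxidase that degrades serotonin, ranged from 10.42 to 10.67 over the 12 arrays and Slc29a4, another low-affinity transporter, from 12.06 to 12.28. Aanat, which acts on serotonin ahead of Asmt, ranged from 7.87 to 8.52.

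Downstream of the receptors, all 20 genes for G proteins, adenylyl cyclases, phospholipase C isoforms and inward rectifier channels and all 12 genes for receptor partners were tested. By the brightest probe of each gene, none met the screening criterion or had an adjusted p under 0.05 in any comparison (0 of 20 and 0 of 12). The counts that follow take the same probes. In exercised WT versus WT 6 of the 20 and 6 of the 12 had an unadjusted p under 0.05, against the 26% of all probes given above, and in the fit with the slide block 1 and 0 did. Gnai2 encodes a subunit of the inhibitory G proteins. Its brighter probe was at 11.87 to 12.38 on slide 1 and 12.38 to 13.13 on slide 2, KO replicate 3 included. The log2 difference of this probe between KE and KO mice was 0.60 (95% interval -0.06 to 1.25), and -0.21 when the block was fitted. The other Gnai2 probe went the other way, at 12.01 to 12.21 on slide 1 and 11.72 to 12.10 on slide 2. Its means were 12.08 in KO and 11.92 in KE mice. Gnaq, the G protein of Htr2 receptors, had an exercised WT versus WT difference of 0.33 (95% interval 0.02 to 0.64) and -0.22 with the block. Mpdz, a scaffold that binds the Htr2c receptor, and Rgs4, a protein that shortens G protein signals, had exercised WT versus WT differences of 0.43 and 0.38 (adjusted p = 0.0934 and 0.102 from limma), and 0.10 and 0.03 with the block. The Mpdz value is that of its brightest probe, and its other probes went either way. Probe A_55_P2716521 was at 7.52 to 8.23 in WT and 7.17 to 7.44 in exercised WT mice. The dimmer probe A_65_P04373 was at 4.40 to 4.97 in WT and 4.89 to 5.33 in exercised WT mice.

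The pattern of the 8 genes with a probe well above background on all 12 arrays was set against 32095 probes that were well above background on every array, as a description of arrays that share 2 slides and 1 normalization. Htr4 was nearest to Desi2 (Pearson's r = 0.95, n = 12 arrays), Kdm3a (r = 0.95) and Mkks (r = 0.92). Htr1a was nearest to Tacr1 (r = 0.94), the gene of the substance P receptor, and then to the noncoding RNA gene Dlx6os1 (r = 0.94). Htr2c was nearest to Dock10 (r = 0.93), Htr7 to Tbc1d4 (r = 0.95), Htr1b to Mapre2 (r = 0.94), Htr1d to Gpr12 (r = 0.89), Htr2a to Ifrd1 (r = 0.89) and Htr3a to Csnk1a1 (r = 0.84). No member gene was among the 3 nearest genes of another. With only 3 genes taken from 32095 probes, this does not show whether the members share a pattern, which was not tested.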

How the data were processed

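RNA was measured on Agilent SurePrint G3 mouse arrays, 1 sample to an array, and the labels gave groups and replicates. Deposited were spot intensities, which Feature Extraction 10.7.1.1 had background-subtracted, and a table of deposited log2 values that GeneSpring had quantile-normalized over the arrays. The raw intensity in that table lay within 0.01 (log2) of the scanner output for 56513 to 56588 of 56605 probes per array. The authors' tables of 4 comparisons hold fold changes and p-values and were not used, nor were 84 further columns of per-sample values. The deposited table has old symbols for Grk2 and Grk3, which were matched through RefSeq synonyms.

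Detection flags and slides came from the scanner output, and 140 control probes were left out. Group means were fitted to the deposited log2 values with limma 3.58.1 in R 4.3.3 over all 12 arrays, with Benjamini-Hochberg adjustment over the 35230 tested probes. The fit was tested on data simulated with independent noise and no slide effect, so that test does not bear on the slide. All 10 genes were named. The brightest probe by mean stood for a gene, other receptor and handling genes were named or counted, of the G protein and partner lists the genes with the 2 largest differences were named, and the 3 nearest patterns were sought per gene. The members and lists were chosen with earlier results of these data known. The alternatives were another quantile normalization made from the scanner output, scaling to the 75th percentile of each array, normexp correction (offset 50), no detection filter, detection on all 12 arrays, the methods' t-test, the slide or the replicate number as a block, probes averaged per gene, and leaving out each array in turn. Figures were drawn with matplotlib 3.10.9.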

Additional observations from a re-analysis of the deposited data

How the results depend on the processing

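No member probe met the screening criterion or had an adjusted p under 0.05 under any alternative except when 1 array was left out. Leaving out each array in turn, the adjusted count ran from 0 to 2 in exercised WT versus WT (Htr2a and the dimmer Htr3a probe without KO replicate 3) and from 0 to 1 in KE versus KO (Htr4 without KO replicate 3), where 18% and 24.3% of all probes passed. The screening count ran from 0 to 1 in KE versus KO (Htr5a, log2 difference -1.09, without KE replicate 3). Without KO replicate 3, KE versus KO lies wholly between the slides, as exercised WT versus WT does with all arrays.

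Small log2 differences changed sign. With normexp they became 0.041 (Htr1d) and -0.027 (Htr7) in exercised WT versus WT, 0.039 (Htr2a) in KE versus KO, -0.045 (Htr3a) in KE versus exercised WT, and -0.073 (Htr2c) and 0.016 (Htr7) in the interaction. With the slide as a block they became 0.39 (Htr5a, exercised WT versus WT) and -0.073 (Htr3a, KE versus KO), and with probes averaged per gene -0.043 (Htr7, exercised WT versus WT) and -0.13 (Htr3a, KE versus KO). Scaling by the 75th percentile gave 0.039 (Htr1d, interaction), and quantile normalization from the scanner output gave -0.0067 (Htr2c, exercised WT versus WT). Leaving out each array in turn gave ranges that crossed 0 for the brightest probe of some genes. In KO versus WT they were -0.17 to 0.49 for Htr5a and -0.048 to 0.014 for Htr7. In exercised WT versus WT they were -0.013 to 0.14 for Htr1b, -0.086 to 0.090 for Htr2c and -0.32 to 0.080 for Htr5a. For Htr7 in KE versus KO it was -0.056 to 0.0044. For Htr3a they were -0.061 to 0.11 in KE versus KO and -0.051 to 0.12 in KE versus exercised WT. In the interaction they were -0.22 to 0.063 for Htr1d and -0.015 to 0.17 for Htr2c. The cause was not tested. The count of member probes at an unadjusted p under 0.05 moved by over 1.5 times in some settings. For KO versus WT it was 1 rather than 2 with the 75th percentile, the methods' t-test or probes averaged per gene. For KE versus KO it was 1 rather than 2 with the slide block or averaged probes, and for KE versus exercised WT 1 with the other quantile normalization and 4 with the methods' t-test. With 1 array left out it was also 1 for KO versus WT (WT replicate 2, KO replicate 1 or KO replicate 2), for KE versus KO (KO replicate 2 or KE replicate 2) and for KE versus exercised WT (WT replicate 3 or exercised WT replicates 2 or 3), and 5 rather than 3 in the interaction without WT replicate 3.

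The replicate numbers of the sample titles, which are used throughout, did not pair the samples. The descriptions number some samples otherwise, and a pairing by those numbers was not tested. Arrays with the same number in different groups had deviations correlated from -0.19 to 0.24 over 18 pairs, against -0.26 to 0.24 for other numbers. Every group holds each replicate number, so the replicate block could not change a difference, paired or not (Htr4 in KE versus KO stayed at -0.35). With this block the counts of member probes past the screening criterion or an adjusted p under 0.05 stayed at 0.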
